A study of Mus musculus with 11 samples.

Results

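The 10 genes described here, Cldn5, Esam, Cdh5, Pecam1, Kdr, Flt1, Tek, Tie1, Aplnr and Sox17, are widely used to mark endothelial cells, the cells that line blood vessels. They were taken by gene symbol from the 20475 genes listed in each of 2 tables, and all 10 were present in both. Poly(A) RNA of E12.5 mouse cortex (named forebrain, with the cell type given as neural cell, in the sample labels) was sequenced in a germline comparison of 3 wild-type (WT) and 3 Kif20a knockout (KO) libraries and in an inducible comparison of 2 WT and 3 KO libraries. Kif20a encodes a mitotic kinesin of cytokinesis. The germline KO carried a knockout-first cassette with LacZ and a neomycin resistance gene behind exon 4 of Kif20a, in a line that came from a single embryonic stem cell clone and was expanded by crosses to C57BL/6J. In the inducible comparison the cassette had been removed with FlpeR, the litters had received tamoxifen on E9.5 and again on E10.5, the controls, labelled wild type, were Kif20a fl/fl in the study's other experiments with this line, and the KO embryos carried Kif20a fl/fl with a CreERT2 driven by Nestin, an intermediate filament gene of neural progenitors. Which cells had recombined was not measured here. Nothing in the labels ties a library to 1 embryo, so P values measure the spread between libraries.

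The cortex makes no endothelial cells of its own. Vessels grow into it from a plexus on its surface, toward vascular endothelial growth factor (VEGF) that neural progenitors release, and under Wnt7a and Wnt7b from the same progenitors, which are required for this ingrowth and for the early blood-brain barrier. Endothelial sprouts are led by tip cells, are stabilized by angiopoietin signaling, and recruit pericytes. Cldn5, Esam, Cdh5 and Pecam1 hold endothelial cells to each other. Kdr and Flt1 are receptors for VEGF, Tek and Tie1 form the angiopoietin receptor pair, Aplnr is the receptor for apelin, and Sox17 is a transcription factor of arterial and barrier endothelium.

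All values are normalized counts, that is, reads per gene after the authors equalized the libraries of each table, so levels were not compared between tables. The libraries of the germline table summed to between 13048716 and 15551274 normalized counts and those of the inducible table to between 24118520 and 24497307. A gene was called when it changed by at least 1.5-fold with an unadjusted P of at most 0.05 in limma's moderated test on log2(normalized count + 1), and Benjamini-Hochberg adjusted P values over all genes tested are also given. Kif20a stood at 2294.6 to 2680.2 normalized counts in germline WT and 373.6 to 503.4 in germline KO (log2 difference -2.54, SE 0.15, limma adjusted P = 0.00845), and at 4760.1 and 4844.1 in inducible WT and 2852.6 to 3125.2 in inducible KO (log2 difference -0.70, SE 0.06, limma adjusted P = 0.0107).

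One germline library, KO replicate 2, stood apart in its cell types. Of 18 genes of cranial mesenchyme and meninges, the tissue around the brain that the surface vessels run in, all 18 were below every WT library in it and 6 were at 0; their summed level was 605.0 against 5518.6 to 9717.6 in WT and 12198.1 and 24406.3 in KO replicates 3 and 1. All 13 microglia and macrophage genes in the table were also below WT there, with 3 at 0, while 13 of 14 genes of cortical neural cells were above every WT library. In KO replicates 1 and 3 the shift ran the other way, with 16 of 18 mesenchymal genes above every WT library in each and 10 and 8 of 14 neural genes below. Calls of the germline comparison were therefore also made with each KO library left out. For the other gene lists this alternative was added after seeing the data. Here and below, the share of all genes outside the WT range in a single KO library was not computed. Counts of genes outside that range in 1 library are therefore descriptions only. The libraries also differed in the Y-linked gene Kdm5d, which stood at 397.9 to 1442.5 normalized counts in germline WT replicates 1 and 3 and KO replicate 3 and at 0.0 to 1.6 in the other three, and at 0.0 in both inducible WT and 1259.1 to 1385.8 in the 3 inducible KO libraries. In the inducible comparison, sex and genotype cannot be told apart. Among the germline KO libraries, replicates 1 and 2 lacked Kdm5d and replicate 3 had it. Where those 2 libraries differ from KO replicate 3 below, this cannot be told apart from a difference by sex.

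The 10 genes were first set against each other in WT. Their length differs, so levels were divided by the exon length of each gene in GENCODE M1. In germline WT, Aplnr (87.4 ± 31.3 normalized counts per kilobase, SD, n = 3), Cldn5 (86.5, range 65.7 to 97.7), Cdh5 (86.5 ± 46.5), Pecam1 (74.5 ± 27.1) and Kdr (71.7 ± 25.4) were highest. These neighbors differed by less than the spread between libraries. Esam (46.2 ± 14.2) and Tek (44.3 ± 16.9) lay below them with overlapping ranges, then Tie1 (28.3 ± 10.3), which overlapped Tek, and Sox17 (12.1 ± 6.01) and Flt1 (10.7 ± 4.70) were lowest and overlapped each other. In inducible WT the same 5 genes were highest, led by Cdh5 (258 normalized counts per kilobase, range 214 to 302, n = 2), and the lowest were again Flt1 (26.7, range 23.6 to 29.8) and Sox17 (21.6, range 21.2 to 22.0). Both tables thus held endothelial RNA, with Flt1 well under Kdr per kilobase.

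In this fit of the germline comparison, none of the 10 genes was called in either direction, and none reached an unadjusted P of 0.05. The study's own lists of changed genes name 1 of them, Aplnr. Over all 13938 genes tested, 0.667% were called lower and 2.07% higher. With 1 KO library left out, these shares were 0.396% and 1.05% without KO replicate 1, 4.58% and 4.19% without KO replicate 2, and 2.9% and 4.43% without KO replicate 3, and counts of calls in those fits are to be read against them. The levels of KO and WT libraries overlapped for all 10 genes, where 7.55% of all genes lay entirely lower and 5.9% entirely higher in KO. The median log2 difference of the 10 was -0.40, with 7 below 0 and 3 above, against a median of -0.043 over all genes. This median did not describe any single library. Relative to the WT mean on the log2 scale, the 10 genes had a median of 0.48 in KO replicate 1, -2.01 in KO replicate 2 and 0.34 in KO replicate 3, whereas the WT libraries lay at -0.12, -0.44 and 0.55.

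**Figure D1:**
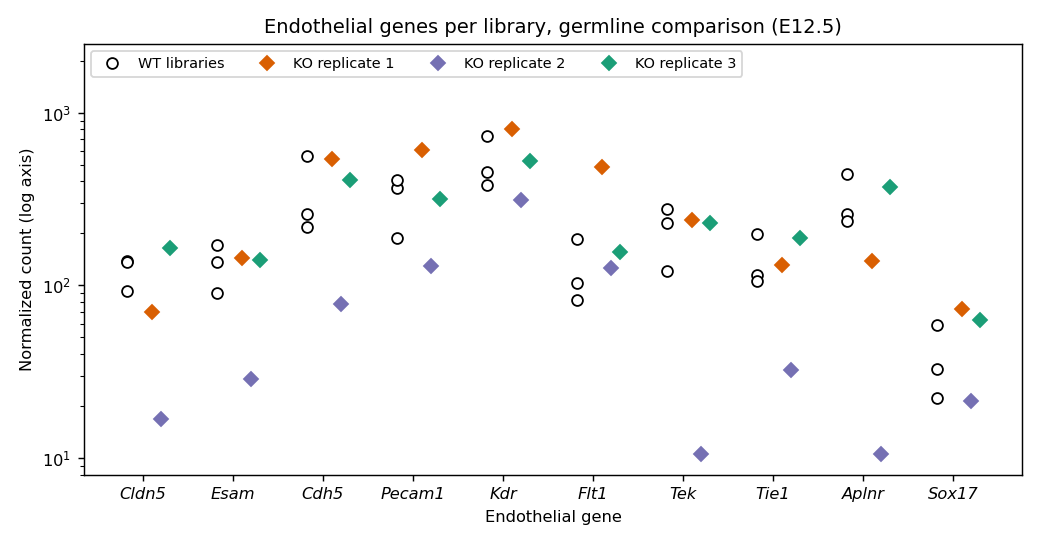
Normalized counts (log axis) of the 10 endothelial genes in the germline comparison, 1 point per library, with WT as open circles and each KO library in its own color. KO replicate 2 lies below all 3 WT libraries for 9 of the 10 genes, Flt1 being the exception, and KO replicate 3 lies within or above the WT range for every gene.

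The junction genes gave different pictures in different KO libraries. Cldn5 (chr16:18776940-18778353 in mm9, plus strand), the main claudin of brain endothelial tight junctions, stood at 138.1, 92.9 and 136.1 normalized counts in WT replicates 1 to 3 and at 69.7, 16.9 and 164.8 in KO replicates 1 to 3. KO replicates 1 and 2 were below every WT library and KO replicate 3 was above every one (log2 difference -1.03, SE 0.75, limma adjusted P = 0.795). Without KO replicate 3, Cldn5 was called lower (log2 difference -1.77, limma adjusted P = 0.428), and without KO replicate 2 the difference was -0.17 and not called. Cdh5 (chr8:106625525-106668402, plus strand), which encodes VE-cadherin of the adherens junction, stood at 217.9, 259.1 and 557.8 in WT and 542.8, 78.5 and 406.9 in KO (log2 difference -0.28, SE 0.73). Pecam1 (chr11:106515531-106611942, minus strand), an adhesion molecule of the endothelial surface, stood at 368.4, 188.1 and 407.4 in WT and 608.4, 129.2 and 315.5 in KO (log2 difference -0.06, SE 0.57). For both, only KO replicate 2 was under all WT libraries, and KO replicate 1 was near or above the highest of them. Esam (chr9:37335663-37345904, plus strand), an adhesion molecule of endothelial tight junctions, stood at 135.7, 90.1 and 171.5 in WT and at 144.6, 28.7 and 140.7 in KO, so that 2 KO libraries lay inside the WT range (log2 difference -0.60, SE 0.63).

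The VEGF receptors had different patterns over the KO libraries, though neither was called with all libraries. Kdr (chr5:76328852-76374483, minus strand), the main signaling receptor for VEGF on endothelium, stood at 453.1, 381.0 and 731.6 normalized counts in WT and 809.8, 311.3 and 526.5 in KO. It varied least of the 10 among the KO libraries (2.6-fold), at 59.6% of the WT mean in KO replicate 2 and 155% in KO replicate 1 (log2 difference 0.02, SE 0.39, 95% confidence interval -0.89 to 0.93). Flt1 (chr5:148373180-148537587, minus strand), which binds VEGF tightly, signals weakly and is known as a decoy that limits Kdr, stood at 103.9, 82.8 and 185.9 in WT and 487.8, 126.6 and 155.7 in KO. Flt1 was the only gene of the 10 that was not under the WT range in KO replicate 2, at 102% of the WT mean, and it reached 393% in KO replicate 1 (log2 difference 0.86, SE 0.55, limma adjusted P = 0.78). Without KO replicate 2, Flt1 was called higher (log2 difference 1.23, limma adjusted P = 0.306), as 4.19% of all genes then were, and without KO replicate 1 the difference was 0.26 and not called.

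The angiopoietin receptors were outside the WT range in KO replicate 2 only. Tek (chr4:94405980-94541667, plus strand), also known as Tie2, binds angiopoietins and stood at 228.8, 121.2 and 276.7 in WT and at 237.9, 10.6 and 231.1 in KO. It was at 5.06% of the WT mean in KO replicate 2, and the other KO libraries lay inside the WT range (log2 difference -1.20, SE 1.14). Its partner Tie1 (chr4:118143796-118162666, minus strand), which modulates Tek, stood at 114.4, 106.1 and 197.5 in WT and at 131.7, 32.3 and 186.9 in KO, again with only replicate 2 outside the WT range (log2 difference -0.52, SE 0.64).

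Aplnr had the largest difference of the 10 in the germline comparison. Aplnr (chr2:84976517-84980079, plus strand) is expressed on venous and sprouting endothelium and stood at 259.5, 235.7 and 439.5 normalized counts in WT and 139.3, 10.6 and 371.7 in KO. KO replicates 1 and 2 were at 44.7% and 3.40% of the WT mean, below every WT library, and KO replicate 3 was inside the WT range, a 35.1-fold spread among the KO libraries against 1.87-fold in WT (log2 difference -1.83, SE 1.15, limma adjusted P = 0.779). Without KO replicate 3 it was called lower (log2 difference -2.90, limma adjusted P = 0.429), and without KO replicate 2 the difference was -0.39 and not called. Aplnr and Cldn5 were the 2 genes of the 10 called lower without KO replicate 3, where 2.9% of all genes were. Aplnr is in the study's own lists of changed genes from these libraries (fold of at least 1.5, P of at most 0.05), though it was not called here with all libraries. The study does not name the test behind those lists. As they were chosen on these libraries, the direction of Aplnr is not independent evidence. Sox17 (chr1:4481009-4486494, minus strand) stood at 32.8, 22.3 and 59.1 in WT and at 72.5, 21.5 and 63.3 in KO, with KO replicates 1 and 3 above all WT libraries and KO replicate 2 just under the lowest (log2 difference 0.39, SE 0.57).

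**Figure D2:**
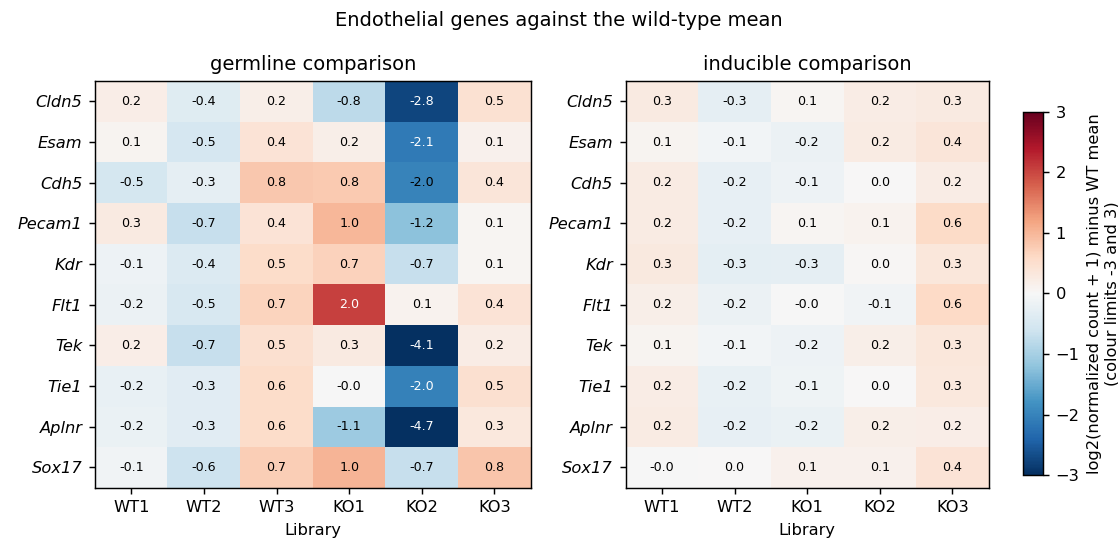
Log2(normalized count + 1) minus the WT mean of the same table, for the 10 endothelial genes (rows) and the libraries of the germline (left) and inducible (right) comparison, with the colors limited to -3 and 3 and the value printed in each cell. In germline KO replicate 2 the values run from -4.70 for Aplnr to 0.11 for Flt1, and in germline KO replicate 1 from -1.10 for Aplnr to 2.05 for Flt1, while the inducible libraries stay within -0.30 and 0.60.

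The amount of vessel in a dissected cortex could shift all 10 genes at once and was not measured, so ratios between them within a library were also taken. In bulk tissue, fewer endothelial cells and less RNA of these genes per cell cannot be told apart. Of the 45 pairs, 8 had ratios that did not overlap between WT and KO in the germline comparison, as had 5 of 45 in the inducible comparison. The pairs share genes and no background over other pairs was computed, so nothing is read from these counts. The ratio of Flt1 to Kdr was 0.229, 0.217 and 0.254 in germline WT and 0.602, 0.407 and 0.296 in germline KO. All 3 KO libraries were above all 3 WT libraries (exact permutation test, two-sided, p = 0.1, the smallest that 3 against 3 libraries allow). The ratio of Aplnr to Kdr was 0.573, 0.619 and 0.601 in WT, a narrow range, and 0.172, 0.034 and 0.706 in KO (exact permutation p = 0.4). The ratio of Cldn5 to Pecam1 was 0.375, 0.494 and 0.334 in WT and 0.115, 0.131 and 0.522 in KO (exact permutation p = 0.4). In both of these, KO replicates 1 and 2 fell on one side of the WT libraries and KO replicate 3 on the other. These 3 pairs were picked for display after their values were seen. In the inducible comparison the same ratios overlapped, with Flt1 to Kdr at 0.223 and 0.269 in WT and 0.296, 0.222 and 0.291 in KO.

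**Figure D3:**
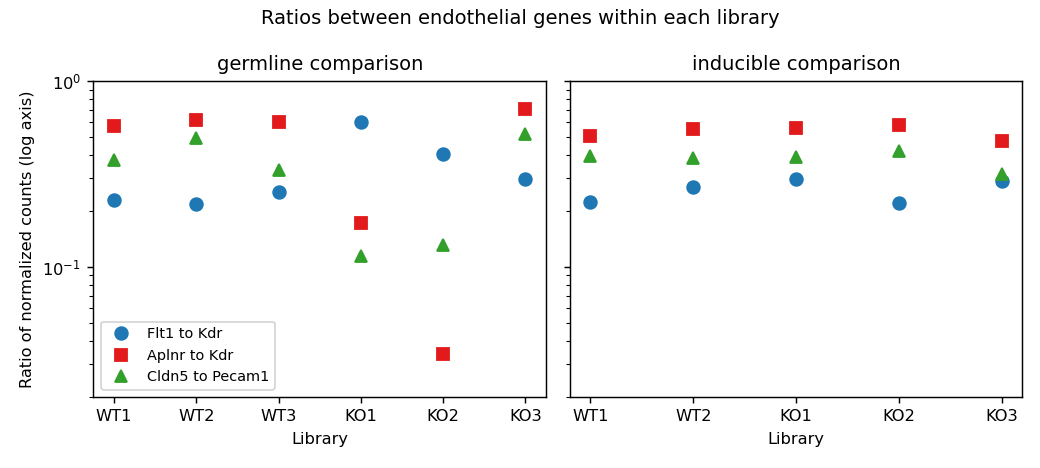
Ratios of normalized counts between pairs of endothelial genes within each library (log axis), for Flt1 to Kdr, Aplnr to Kdr and Cldn5 to Pecam1, in the germline (left) and inducible (right) comparison. Germline KO replicates 1 and 2 have a raised Flt1 to Kdr ratio (0.602 and 0.407 against at most 0.254 in WT) and lowered ratios of Aplnr to Kdr and Cldn5 to Pecam1, whereas the inducible libraries stay close together.

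The upstream sequence of Flt1 and Kdr, receptors of 1 ligand, is shown here. This pair was picked after its ratios in the germline libraries were seen, so no difference between the receptors is taken as established. Endothelial genes are commonly bound by ETS factors, whose core site is GGAA, and Flt1 is a known target of the hypoxia-inducible factor (HIF). The RefSeq promoter table (GRCm38.p6) held 5 of the 10 genes, Cldn5, Kdr, Flt1, Tek and Tie1. In the 250 bases before each start site, GGAAG was searched as an ETS core and ACGTG or GCGTG as a HIF core, on both strands. An ETS match occurred in 3 of the 5 genes and in 64.1% of all 32851 promoters, and a HIF match in 2 of the 5 (Flt1 and Kdr) and in 38.6% of all promoters. Below are 30-base windows, 5′ to 3′ on the strand of the gene, around the match nearest the start site, which is in capitals. A match on the opposite strand reads as the reverse complement of the core.
Flt1, HIF core, 184 bases upstream, chr5:147726178-147726207, minus strand: ctagcgccaccgCACGCgcgctctggcccc
Kdr, HIF core, 89 bases upstream, chr5:75978527-75978556, minus strand: atccagtgggggGCGTGgccggacgcaggg
Flt1, ETS core, 52 bases upstream, chr5:147726046-147726075, minus strand: ggtgccggggtaGGAAGtgggctggggaaa
Kdr, ETS core, 216 bases upstream, chr5:75978654-75978683, minus strand: ggctacattttaCTTCCaccagaaaccgag
Tie1, ETS core, 17 bases upstream, chr4:118489850-118489879, minus strand: acaggcgacaactCTTCCcaccctctctcc
Both receptors thus carried a match to each core in this window, so the letters searched did not separate Flt1 from Kdr.

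The ligands for these receptors come largely from the neural tissue around the vessels. Of 12 listed ligands and co-receptors, 11 were tested in the germline comparison, and 1 was called higher and 1 lower. Vegfa, the ligand of Kdr and Flt1, stood at 1011.8, 820.6 and 1108.6 normalized counts in WT and 5201.5, 11872.7 and 1302.1 in KO (log2 difference 2.15, SE 0.71, limma adjusted P = 0.779). It rose in all 3 KO libraries over all WT libraries, by a small margin in KO replicate 3, and missed the call when KO replicate 1 was left out (log2 difference 2.01, limma adjusted P = 0.889). Wnt7a, the neural ligand for brain endothelium, stood at 401.9, 427.5 and 344.5 in WT and 150.1, 272.5 and 232.1 in KO and fell in all 3 (log2 difference -0.88, SE 0.25, limma adjusted P = 0.779); it stayed called with any 1 KO library left out. Wnt7b, which acts with it, was not called (log2 difference 0.29, SE 0.21), nor was Nrp2, the other of the 3 highest (log2 difference 0.27, SE 0.42). Angpt1, the activating ligand of Tek, ranged from 203.5 to 279.2 in WT and 218.0 to 228.2 in KO. Apln, the ligand of Aplnr, stood at 91.9, 83.8 and 82.0 in WT and 272.8, 124.0 and 85.4 in KO (log2 difference 0.73, SE 0.42, limma adjusted P = 0.779). KO replicates 1 and 2, where Aplnr was lowest, thus had Apln above all WT libraries, and without KO replicate 3 Apln was called higher, as was Vegfb, another VEGF family ligand.

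Genes of sprouting vessels and of the barrier gave a few calls. Of 12 tip cell and sprouting genes, 11 were tested and 2 were called higher, with a median log2 difference of 0.59. Esm1, a tip cell proteoglycan, stood at 6.5, 9.6 and 9.6 normalized counts in WT and 136.5, 65.5 and 13.1 in KO (log2 difference 2.42, SE 0.81, limma adjusted P = 0.779). Adm, a vasoactive peptide, stood at 11.4, 3.2 and 3.3 in WT and 301.6, 245.3 and 11.1 in KO (log2 difference 3.99, SE 1.24, limma adjusted P = 0.779). Both were high in KO replicate 2, in which 9 of the 10 endothelial genes were low, and both missed the call without KO replicate 1 (log2 differences 1.70 and 3.16). The 3 highest genes of this list, Ackr3, Nid2 and Cxcr4, had log2 differences of 0.01, 0.21 and -0.03 and were not called. Without KO replicate 2, 4 of these 11 were called higher, Nid2 and Igfbp3 besides Adm and Esm1, and without KO replicate 3 also 4, with Apln and Dll4 besides Adm and Esm1. Of 15 genes of blood-brain barrier endothelium, all tested, 2 were called higher, with a median log2 difference of -0.13. Slc2a1, the glucose transporter of the barrier that neural cells also express, stood at 958.4, 968.3 and 1286.8 in WT and 5246.8, 9295.5 and 1222.8 in KO (log2 difference 1.88, SE 0.67, limma adjusted P = 0.779). Reck, a receptor cofactor for Wnt7 ligands, stood at 197.7, 180.0 and 286.2 in WT and 543.9, 461.1 and 282.3 in KO (log2 difference 0.93, SE 0.30, limma adjusted P = 0.779). Its partner Gpr124 was not called, at 165.3, 149.0 and 262.1 in WT and 544.5, 27.8 and 336.6 in KO (log2 difference -0.10, SE 1.02), but without KO replicate 2 it was 1 of 3 barrier genes called higher, while Spock2 was called lower. Slc16a1, a lactate transporter gene that was also among the highest of this list, was not called (0.35). Slc2a1 and Reck also missed the call without KO replicate 1 (log2 differences 1.67 and 0.73). Adm, Esm1, Slc2a1, Reck and Wnt7a are among the genes that the study listed from these libraries, so these calls are not independent evidence.

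A second, larger set of 34 pan-endothelial genes was tested beside the 10. None of the 34 was called and none reached an unadjusted P of 0.05, with a median log2 difference of -0.19, 23 below 0 and 11 above. Without KO replicate 2 the median was 0.48 and 3 of the 34 were called higher, Flt4, Plvap and Vwf. Without KO replicate 3 the median was -0.51 and 1 was called lower, Klf2. Relative to the WT mean, their medians were 0.65, -1.61 and 0.37 in KO replicates 1, 2 and 3. In KO replicate 2, 30 of the 34 were below every WT library, as were 9 of the 10. The share of all genes below WT in that library was not computed, so these counts are descriptions only. The 3 highest were Cd34, an adhesion sialomucin (log2 difference -0.76, SE 0.83), Cd93, an endothelial surface receptor (-0.42, SE 0.64), and Lmo2, a cofactor of blood and vessel transcription factors (0.12, SE 0.27). Lmo2 was the 1 gene of the 34 above every WT library in KO replicate 2 (538.0 against 325.4 to 521.9). Of the 34, Klf2 and Vwf are in the study's own lists of changed genes, though neither was called here with all libraries. Klf2, a flow-responsive transcription factor of endothelium, stood at 37.1, 35.2 and 37.9 in WT and 8.8, 1.6 and 52.2 in KO (log2 difference -1.77, SE 1.01). Klf2 was singled out after its values were seen. Its levels were ordered among the KO libraries as those of Aplnr and Cldn5. Other endothelial genes, such as Tie1, Cd34 and Plvap, had the same order, so it is not particular to these genes.

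Other cell types moved with the endothelial genes across the germline KO libraries. Of 16 pericyte and smooth muscle genes, the mural cells around vessels, 14 were below every WT library in KO replicate 2 and 4 were at 0. Their summed levels were 2999.5 to 4193.2 in WT and 5768.3, 2685.9 and 4198.6 in KO. Notch3 made up much of each sum, at 1115.1 to 2214.8 in WT and 1906.8 in KO replicate 2. The sum thus understates how far most of the list fell in that library. Of the 16, 13 were tested and Acta2 was called higher (log2 difference 0.79, SE 0.32, limma adjusted P = 0.779). The other high genes of the list, Notch3 and Pdgfrb, were not called (0.52 and 0.28). Acta2 was not called without KO replicate 1 (log2 difference 0.55) or without KO replicate 2 (0.73), and in the latter fit 5 other mural genes were called higher, Anpep, Cnn1, Notch3, Pdgfrb and Tagln. Erythroid genes, carried by circulating blood, summed to 105179.9 to 173774.0 in WT and to 160342.8, 38260.5 and 171189.9 in KO, with 12 of 13 below WT in KO replicate 2 and 0 of 13 called. The highest of these, the embryonic and alpha globins Hba-a2, Hba-a1 and Hbb-y, had log2 differences of -0.46, -0.46 and -0.33, and the near-identical Hba copies share reads. Without KO replicate 2 the erythroid median was 0.88, against -0.08 with all libraries, and 4 of 13 were called higher, Hba-x, Hbb-bh1, Hemgn and Klf1. The WT libraries were far apart for some of these. Hemgn stood at 3.5, 13.1 and 152.4 in WT and 203.1 and 117.5 in KO replicates 1 and 3, and Hbb-bh1 at 621.8, 1439.2 and 5806.0 against 8894.3 and 6522.6. Hbb-b1, not called, stood at 11793.4, 3366.2 and 2408.8 in WT and at 2724.7 and 4174.6 in those KO libraries. Microglia and macrophage genes summed to 869.0 to 1422.4 in WT and 1132.3, 37.5 and 1006.7 in KO, with the defining marker Csf1r at 7.0 and Mrc1 and Pf4 at 0.0 in KO replicate 2 and 0 of 13 called. The mesenchymal collagens Col3a1, Col1a2 and Col1a1 stood at 2.5, 18.7 and 11.5 in that library, against at least 592.6 in WT, and 0 of 18 mesenchymal genes was called (median log2 difference -0.58). Without KO replicate 2, 16 of the 18 were called higher, with a median of 1.5. The macrophage marker list then still had 0 of 13 called, and without KO replicate 3 its P2ry12 was called lower. Neural genes summed to 51671.5 to 58941.7 in WT and 36455.9, 95526.2 and 41753.0 in KO, with 0 of 14 called and log2 differences of -0.33, -0.24 and -0.25 for the highest, Dcx, Nes and Tubb3. Without KO replicate 2, 6 of the 14 neural genes were called lower, the genes of neurons and their precursors Dcx, Eomes, Neurod1, Stmn2, Tbr1 and Tubb3. The endothelial genes were thus low in the library in which mesenchymal, mural, blood and macrophage genes were low and neural genes high, and the part of these cell proportions in the endothelial values was not tested. Each library was also centered on the mean of the 34 other pan-endothelial genes, a scale chosen after seeing the data. Aplnr then still had the largest difference (log2 difference -1.55, SE 0.85), followed by Flt1 (1.14, SE 0.85). None of the 10 was called, but nothing is read from that. The same shift was applied to every gene, and the SE rose from 0.15 to 0.93 for Kif20a and from 0.39 to 0.90 for Kdr.

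**Figure D4:**
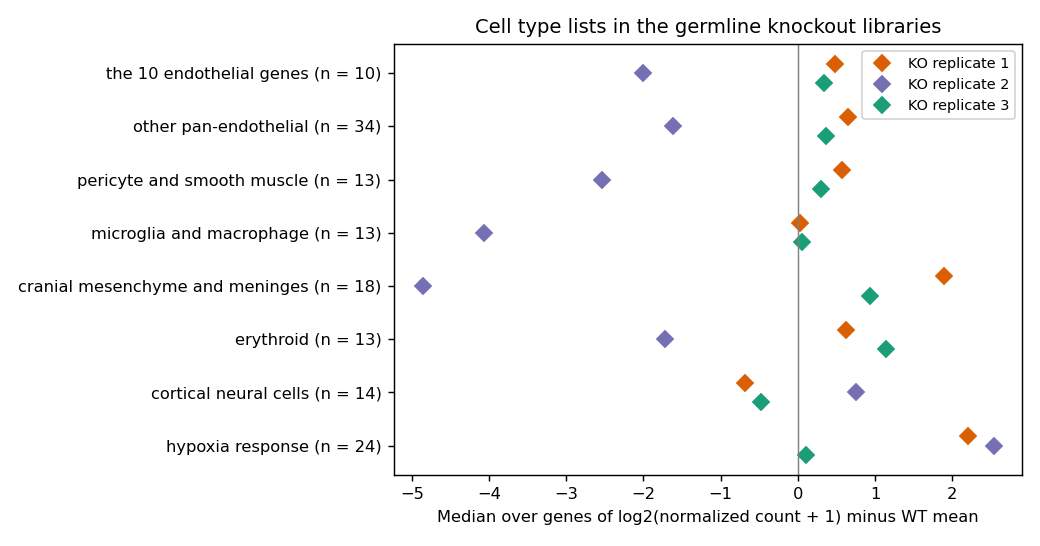
Median over the genes of each list of log2(normalized count + 1) minus the WT mean, in the 3 germline KO libraries (points), with the number of genes tested in brackets. KO replicate 2 lies at -2.01 for the 10 endothelial genes and at -4.86 for mesenchyme and -4.06 for microglia and macrophages, whereas the hypoxia response list is raised in KO replicates 1 and 2 (2.21 and 2.54) and close to WT in KO replicate 3 (0.11).

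The hypoxia response list, glycolytic and HIF target genes, was raised in the KO libraries in which Aplnr and Cldn5 were below WT. Of its 24 genes, 14 were called higher, with a median log2 difference of 1.55, and the median over the list was 2.21, 2.54 and 0.11 in KO replicates 1, 2 and 3. Of the 3 highest, Ldha, which makes lactate, stood at 6401.0, 6590.5 and 6119.6 in WT and 16658.6, 15954.2 and 8146.2 in KO (log2 difference 1.02, SE 0.27), Pgk1, a glycolytic kinase, was called as well (0.85, SE 0.28), and Gapdh was not (0.49, SE 0.21). The other 12 called were Tpi1, Aldoa, Pdk1, Bnip3, Hk2, Pfkfb3, P4ha1, Ero1l, Slc2a3, Slc16a3, P4ha2 and Ankrd37, with log2 differences from 0.94 for Tpi1 to 3.15 for P4ha2. All 14 had a limma adjusted P of 0.779, and 9 of the 24 are in the study's own lists. With KO replicate 3 left out 21 of 24 were called higher, with KO replicate 2 left out 12 of 24, and with KO replicate 1 left out 3 of 23. The share of this response in the endothelial values was not tested.

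Most pairs of the 10 genes rose and fell together over the 6 germline libraries. Pearson's r between pairs of them, on log2 values over 6 libraries, had a median of 0.80 and ran from -0.03 to 0.99. The gene least like the mean profile of the 10 was Flt1 (r = 0.44) and the most like it Esam (r = 0.99). Each gene is itself part of this mean, which raises its r. KO replicate 2 lay at -1.8 in the mean profile and the other libraries at -0.26 to 0.75, so these r are descriptions only. Among 4898 other genes that varied at least 2-fold across these libraries, the 10 most like that profile were Tmem64, Slc39a8, Plin2, Lat, Ets1, Dusp27, Ppbp, Gcnt1, Nipal4 and Krcc1, at r from 0.994 to 0.997. Ets1, an ETS factor of endothelium and blood, and Ppbp, a platelet chemokine, are known from vessels or blood. Over the 5 inducible libraries the same 10 had r from -0.64 for Krcc1 to 0.91 for Gcnt1, with a median of 0.44 against 0.25 over all 4898 genes. As 641 genes had r above 0.9 in the germline libraries, which share the low KO replicate 2, these likenesses are a description only.

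In the inducible comparison none of the 10 genes was called in either direction and none reached an unadjusted P of 0.05. Over all 14081 genes tested, 0.49% were called lower and 0.802% higher. All 10 log2 differences lay slightly above 0, from 0.03 for Cdh5 to 0.25 for Pecam1, with a median of 0.13 against -0.002 over all genes. Sox17 was the only gene whose groups did not overlap, at 67.0 and 69.2 normalized counts in WT and 74.8, 74.7 and 91.1 in KO (log2 difference 0.23, SE 0.17, limma adjusted P = 0.884). Over all genes, 10.4% lay entirely higher and 12.2% entirely lower in KO, so 1 of 10 was near the background.

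**Figure D5:**
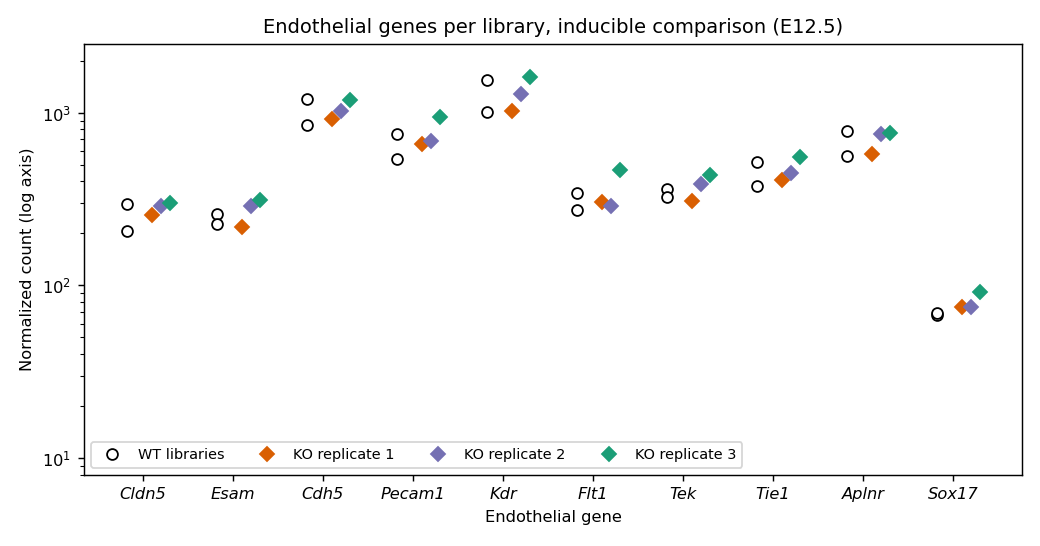
Normalized counts (log axis) of the 10 endothelial genes in the inducible comparison, 1 point per library, with WT as open circles and each KO library in its own color. The KO points lie among or close to the WT points for every gene, and KO replicate 3 is the highest KO library for all 10.

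Library by library, the endothelial genes moved together here as well, by small amounts. Cldn5 stood at 295.7 and 207.2 normalized counts in WT and 256.5, 288.2 and 298.0 in KO (95% confidence interval of the log2 difference -0.20 to 0.56). Cdh5 stood at 1204.2 and 854.2 in WT and 915.5, 1023.8 and 1192.3 in KO (-0.34 to 0.41). For both, the spread between the 2 WT libraries covered most of the KO values. Pecam1 stood at 749.0 and 537.6 in WT and 658.8, 686.5 and 941.5 in KO (-0.20 to 0.69). Esam stood at 259.2 and 228.2 in WT and 216.5, 290.1 and 312.7 in KO (-0.25 to 0.55). In both of these KO replicate 3 was the highest library.

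The receptors behaved alike. Kdr stood at 1548.2 and 1015.2 in WT and 1029.1, 1290.7 and 1600.5 in KO (-0.47 to 0.55), and Flt1 at 344.9 and 273.1 in WT and 305.0, 286.5 and 465.9 in KO (-0.34 to 0.67). Tek stood at 362.6 and 324.1 in WT and 306.9, 387.0 and 434.6 in KO (-0.24 to 0.48), and Tie1 at 520.4 and 377.7 in WT and 407.1, 444.8 and 554.4 in KO (-0.34 to 0.47). Aplnr stood at 786.4 and 560.0 in WT and 577.1, 751.0 and 764.8 in KO (-0.34 to 0.46). All 3 KO libraries were within the WT range for Aplnr, and KO replicate 3 was above it for the other 4 receptors. In these libraries the median of the 10 relative to the WT mean was 0.24 and -0.24 in WT and -0.14, 0.12 and 0.34 in KO. Pairwise r over the 5 libraries had a median of 0.82 and ran from 0.28 to 0.99.

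The other vascular lists of the inducible comparison gave no call. None of the 34 other pan-endothelial genes (median log2 difference 0.05; the 3 highest were Cd93 at 0.12, Cd34 at 0.10 and Vwf at 0.65, SE 0.34, which carries platelet adhesion), none of the 14 tested barrier genes (-0.03, with Slc2a1 at -0.24, Slc16a1 at 0.02 and Apcdd1 at 0.11) and none of the 12 sprouting genes (0.09, with Nid2 at -0.27, Unc5b at -0.38 and Cxcr4 at 0.02) was called. None of the 11 tested ligands and co-receptors (0.09) was called, with Vegfa at 1978.5 and 2281.1 in WT and 2062.5, 2124.2 and 2631.1 in KO, Wnt7b at 3638.8 and 4144.9 in WT and 2928.7, 2963.7 and 3232.2 in KO (log2 difference -0.35, SE 0.07, limma adjusted P = 0.62, under the 1.5-fold threshold) and Nrp2 with a log2 difference of 0.10. Apln stood at 207.9 and 221.6 in WT and 275.1, 264.0 and 258.0 in KO, without overlap (log2 difference 0.31, SE 0.10, limma adjusted P = 0.825, also under 1.5-fold). None of the 14 tested mural genes, 13 erythroid genes, 13 microglia and macrophage genes, 17 tested mesenchymal genes or 14 neural genes was called. Log2 differences of their highest genes were -0.22 for Notch3, 0.03 for Pdgfrb and 0.28 for Acta2, -0.02, -0.02 and -0.11 for Hba-a2, Hba-a1 and Hbb-y, 0.39, -0.02 and 0.24 for Mrc1, Csf1r and Cx3cr1, 0.07, -0.03 and 0.06 for Col3a1, Col1a2 and Col1a1, and 0.08, -0.07 and 0.15 for Nes, Tubb3 and Dcx. Summed levels of mesenchymal genes were 20601.0 and 13058.1 in WT and 15520.4 to 18131.3 in KO, so no library lacked this tissue. Of 23 hypoxia genes tested, 1 was called higher, Ndrg1, a stress-induced gene, from 31.5 and 26.7 in WT to 46.6, 54.5 and 60.3 in KO (log2 difference 0.86, SE 0.22, limma adjusted P = 0.739). The highest, Gapdh, Ldha and Pgk1, had log2 differences of -0.07, -0.11 and -0.13. The germline and inducible differences were not tested against each other, since the tables were normalized separately.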

How the data were processed

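The authors made poly(A) libraries from total RNA of E12.5 cortex, sequenced them, mapped the reads to mm9 with TopHat (1.2.0 in the submitters' processing notes, another version in the study's methods) and assigned them to the exons of RefSeq genes, with a read used once for a gene. The authors then equalized the libraries with edgeR, by the trimmed mean of M-values. The deposited signal is the resulting normalized count of every gene, in a separate table for each comparison and without scaling by gene length. No per-sample column was left unused (0). The values are no longer whole reads, so no count model was fitted, and this scaling hides any shift that most genes have in common.

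Genes averaging 10 or more normalized counts were fitted in each table with limma 3.58.1 (R 4.3.3), on log2 values after adding 1, using lmFit, then eBayes with its trend option, and two-sided P values. The fit was tested on simulated data in which every gene had the same spread and no library stood apart. That test therefore does not cover the spread of the 10 genes among the germline KO libraries. The alternatives were pseudocounts of 0.1 and 5, no filter, quantile normalization, array weights, a replicate block, each library left out in turn and centering on other endothelial genes. The 10 genes and all gene lists were chosen with earlier results of these data known. The text names all 10 genes, Kif20a, and of each list the genes called and the 3 with the highest level; other genes are ligands, partners or genes named for their values. 1 gene that this rule would name is not reported here. Exon lengths and mm9 positions are from GENCODE M1, promoters from RefSeq.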

Additional observations from a re-analysis of the deposited data

How the results depend on the processing

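Array weights gave germline KO replicate 2 a weight of 0.176. With them, 1 of the 10 genes was called higher in the germline comparison, Flt1 (log2 difference 1.22, limma adjusted P = 0.317). The share of all genes called under these weights was not computed, so nothing is read from that count. Pecam1 (0.50) and Cdh5 (0.26) turned positive. With 1 library left out, the number called lower in the germline comparison ran from 0 to 2 (Aplnr and Cldn5, without KO replicate 3) and the number called higher from 0 to 1 (Flt1, without KO replicate 2), and the median log2 difference ran from -0.79 to 0.31, the positive value being without KO replicate 2. Single genes then ran from -1.77 to -0.17 for Cldn5, -2.90 to -0.39 for Aplnr and 0.26 to 1.23 for Flt1, and from -0.59 to 0.52 for Pecam1, -0.82 to 0.57 for Cdh5, -0.31 to 0.38 for Kdr, -1.94 to 0.25 for Tek, -1.02 to 0.23 for Tie1 and -0.99 to 0.15 for Esam. In the inducible comparison the median ran from -0.04 to 0.30, with Cldn5 from -0.077 to 0.43, Cdh5 from -0.21 to 0.28, Kdr from -0.27 to 0.34, Flt1 from -0.054 to 0.33, Tie1 from -0.16 to 0.30 and Aplnr from -0.18 to 0.30. Centering on other endothelial genes turned Pecam1 in the germline comparison to 0.22 and, in the inducible comparison, Cdh5 to -0.041, Kdr to -0.038, Tie1 to -0.0064 and Aplnr to -0.014. The study describes its WT and mutant cortices as littermates. Deviations of same-numbered libraries correlated at -0.116, 0.306 and 0.247 in the germline and -0.352 and -0.0513 in the inducible comparison. Differently numbered libraries were not compared, so these values cannot decide whether the replicate numbers pair littermates. The main fit was unpaired. A fit with the replicate block called none of the 10 in either comparison. Its unadjusted limma P was below that of the main fit for all 10 in the germline comparison (0.0586 against 0.156 for Aplnr). It turned 5 inducible differences negative, Cdh5 to -0.067, Kdr to -0.12, Flt1 to -0.054, Tie1 to -0.059 and Aplnr to -0.012. No inducible WT library is numbered 3, so this block removes KO replicate 3 from the difference. The same values were obtained with KO replicate 3 left out. Neither pseudocount, the unfiltered fit nor quantile normalization changed a call or a direction. Of the 250 single-gene values under the alternatives, 212 kept direction and call, 34 changed direction and 4 became called. The 34 include the 5 inducible changes under the replicate block and the same 5 without KO replicate 3. The cause of the changes was not tested beyond the libraries named. The design of 3 against 3, or 2 against 3, libraries cannot give an exact permutation p below 0.1.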
